A study of Drosophila melanogaster with 14 samples.

Results

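MicroRNA genes were examined in targeted DamID profiles of the adult Drosophila midgut. The members were the genes of the Release 6 gene table whose symbol begins with mir-, which takes in bantam (listed as mir-ban) and let-7 (mir-let7), while mir-263a is listed as mir-bft, after its name bereft. The table holds 262 such genes, and 260 of them lay in at least 1 GATC fragment, among 17802 genes of all kinds that did. The other 2, mir-10404-1 and mir-10404-2, are listed on both sex chromosomes and were not analysed here. The symbol alone chose the members, and no measured value was used.

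A fusion of Dam methylase to Pol II was driven in ISC/EBs (intestinal stem cells and the enteroblasts they give rise to) under the esg driver, with 2 polII-esg samples set against 2 Dam-esg samples that expressed Dam alone. In enterocytes (ECs, the absorptive cells) the myo (Myo1A) driver was used, with 2 polII-myo samples against 2 Dam-myo samples. A fusion of Dam with Sox21a, a transcription factor (TF) of the progenitors, was driven in ISC/EBs by esg as well, with 3 Sox21a samples against 3 Dam-sox21a samples, which makes 14 samples in all. DNA came from whole dissected midguts of adult flies, so only the driver limits a profile to a cell type. The age and sex of the flies are not given in the labels. The esg driver acts in ISCs and EBs alike, so these cells are not resolved, and more cells with a gene occupied cannot be told apart from higher occupancy in each cell.

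The measure is a log2 ratio, fusion protein over Dam alone, on each stretch between neighboring GATC sites, called a fragment. For each gene it was averaged here over the fragments the gene lies in, weighted by the length inside the gene. The authors deposited 1 averaged track per experiment. The values of single samples and the sequencing depth are therefore unknown here, no value below carries an SD, an interval or a p-value, and no difference has a replicate check. A level was called when it reached 1 on the log2 scale, and a difference between the populations when ISC/EB minus EC reached 1 or -1. These calls are descriptions of size and not tests.

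The populations carried most of their markers. Of 7 ISC/EB marker genes, 6 were matched in the gene table, and all 6 reached 1 in ISC/EBs while 0 did in ECs. Of 7 EC markers, 2 reached 1 in ISC/EBs and 6 in ECs. The 2 were Mal-A1, which was higher in ECs (1.07 and 2.45), and Myo31DF, which was higher in ISC/EBs (1.47 and 1.30). The EC marker below 1 in ECs was nub (0.63). None of 6 enteroendocrine (EE) and 6 visceral muscle markers reached 1 in either population, whereas 2 of 5 hemocyte markers did so in ISC/EBs and 1 in ECs, and 1 of 5 neuron markers did so in ISC/EBs. The ISC/EB Pol II track has a wider spread over its 383654 fragments (SD 0.856) than the EC track (SD 0.652), which bears on every difference between them.

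MicroRNAs are short RNAs that guide Argonaute proteins to messenger RNAs and repress them. Pol II transcribes a long primary transcript, from which Drosha and then Dicer-1 cut the hairpin and the mature microRNA. A hairpin may have a transcript of its own or lie in an intron of a host gene, and several hairpins may share one transcript. In flies they act in growth, cell survival, metabolism, developmental timing and the choice of cell fate. In the midgut, microRNAs of this set are known to tune the Notch and insulin pathways of stem cells.

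A DamID value reads the locus and not the hairpin. The hairpin genes were 50 to 174 bp long, with a median of 92 bp, while the fragments under a member added up to a median of 706 bp. Most members (201) lay in 1 fragment, 44 in 2 and 15 in 3 or more. Members at most 10 kb apart on 1 chromosome were counted as 1 locus, which gave 198 loci, 27 of them with 2 or more members and the largest with 12. Because 43 members shared all their fragments with another, the 260 members stand on 235 distinct sets of fragments, and counts are given by locus as well.

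Pol II reached a level of 1 at 62 of 260 microRNA genes in ISC/EBs (23.8%, at 52 loci), against 29.4% of all genes and 24.3% of other genes that lie in at most 2 fragments. In ECs it did so at 38 members (14.6%, at 35 loci), against 18.9% of all genes and 14.1% of the other short genes. The shares of microRNA genes thus lay near those of other short genes in both populations. Both populations reached 1 at 28 members (10.8%, against 15.1% of all genes and 12.5% of the other short genes), and neither did at 188 (72.3%, against 66.9% of all genes and 74.1% of the other short genes). The median member had 0.08 in ISC/EBs and -0.01 in ECs, where all genes had medians of 0.30 in ISC/EBs and 0.01 in ECs. Other short genes had medians of 0.04 in ISC/EBs and 0.00 in ECs.

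Differences between the populations were more often toward ISC/EBs. At any size of difference, 172 of 260 members had the higher level in ISC/EBs (66.2%, against 65.3% of all genes and 63.9% of the other short genes). After quantile normalization, which gives the 2 Pol II tracks the same distribution, 134 did. For the 134 no share over all genes is given. Of 260 members, 46 were higher in ISC/EBs by at least 1 (17.7%, at 36 loci), against 9.89% of all genes and 12.6% of the other short genes. In the opposite direction, 7 were higher in ECs by at least 1 (2.69%, at 6 loci), against 2.66% and 1.05%. The split depended on the scale of the tracks. With the tracks quantile normalized, the median difference of all genes was -0.01 instead of 0.15, and that of members 0.002 instead of 0.06. On that scale 27 members were higher in ISC/EBs and 13 in ECs by at least 1, against 3.61% and 4.84% of all genes. All 46 and all 7 kept their direction under that scaling, and the 27 were all among the 46. The 46 and the 7 were picked for large differences in the same tracks, so this is no independent check.

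**Figure D1:**
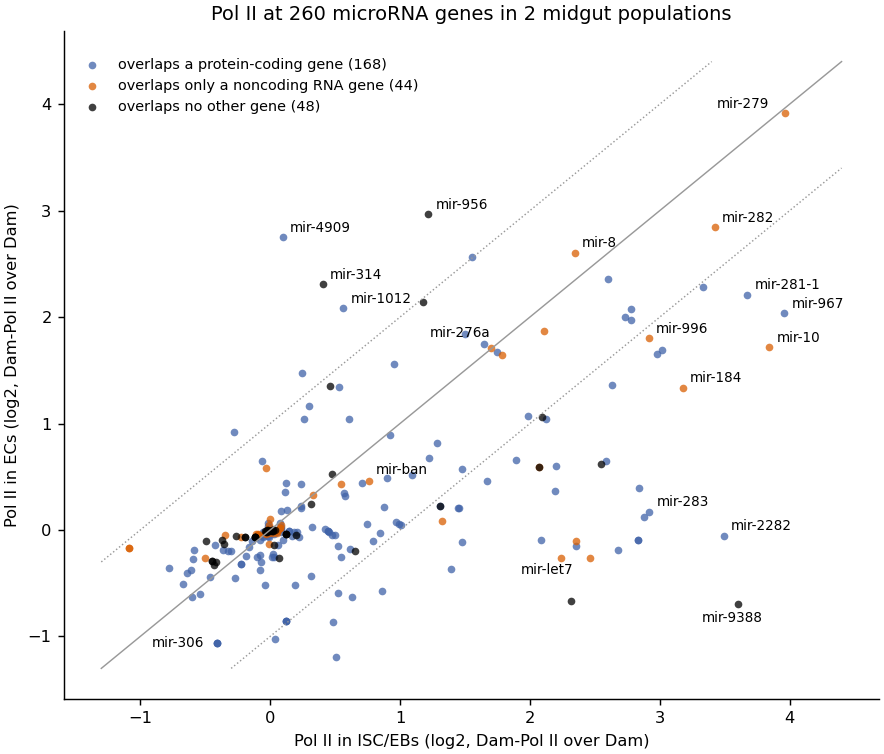
Pol II at 260 microRNA genes, with the level in ISC/EBs on the x axis and in ECs on the y axis (both log2 over Dam), 1 point per gene, coloured by what it overlaps. The solid line marks equal levels and the dotted lines a difference of 1. Most points sit near 0 in both populations, mir-279 lies at the upper right on the line, mir-9388 and mir-2282 far below it and mir-4909 and mir-956 above it.

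The largest excess in ISC/EBs was at mir-9388, on chromosome 3L from 22945116 to 22945207. Its level was 3.60 in ISC/EBs and -0.69 in ECs. The difference of 4.30 was the largest of all 17802 genes, beside at most 3.51 at the other short genes. It overlaps no other gene and lies 449 bp from Mes2, which had 2.43 in ISC/EBs and -0.34 in ECs. The signal was broad, since 34 of 37 fragments within 5 kb reached 1 in ISC/EBs and 0 did in ECs. The member second in this order, mir-2282 on chromosome 3L, had 3.49 in ISC/EBs and -0.05 in ECs. It lies in sty, which encodes Sprouty, an inhibitor of receptor tyrosine kinase signaling, and the rest of sty had 2.46 in ISC/EBs and 0.14 in ECs. On chromosome 4, mir-9385, which overlaps no other gene, had 2.32 in ISC/EBs and -0.67 in ECs.

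Members of the mir-2 family in spi showed the same contrast. spi encodes the EGFR ligand Spitz, and the mir-2 family is known to repress the pro-apoptotic genes of flies. The hairpins mir-2a-2, mir-2a-1 and mir-2b-2 lie within 775 bp of chromosome 2L. mir-2a-1 and mir-2b-2 share 1 fragment, with 2.83 in ISC/EBs and -0.10 in ECs. mir-2a-2 had 2.36 in ISC/EBs and -0.15 in ECs. The rest of spi, seen from mir-2a-1, had 1.86 in ISC/EBs and 0.32 in ECs, so the hairpins lay on its higher fragments in ISC/EBs. The family is spread over 4 places, and the other 3 were low. mir-2b-1, in Btk, had 0.32 in ISC/EBs and -0.43 in ECs. mir-13b-2, in the chaperonin gene CCT2, had 0.33 in ISC/EBs and 0.03 in ECs. The cluster of mir-13b-1, mir-13a and mir-2c on chromosome 3R lay between -0.01 and 0.55 in ISC/EBs and between -0.13 and 0.43 in ECs. The copies mir-2b-2 and mir-2b-1 thus lay on opposite sides of the call in ISC/EBs.

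The let-7 complex was occupied in ISC/EBs. Its microRNAs are heterochronic, which means that they set the timing of developmental transitions, and one noncoding transcript, lncRNA:let7C, carries all 3 hairpins within 991 bp of chromosome 2L. mir-let7 had 2.46 in ISC/EBs and -0.26 in ECs. mir-125 had 2.24 in ISC/EBs and -0.27 in ECs. mir-100 had 1.32 in ISC/EBs and 0.08 in ECs. All 3 differences were above 1 on the deposited scale, and that of mir-100 became 0.79 after quantile normalization. Within 5 kb of mir-let7, 20 of 40 fragments reached 1 in ISC/EBs and 0 in ECs.

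Several other members with known hosts or roles were higher in ISC/EBs. The locus of mir-92a and mir-92b, in jigr1, had 2.68 in ISC/EBs and -0.19 in ECs at mir-92a. At mir-92b it had 1.39 in ISC/EBs and -0.37 in ECs. These microRNAs are known for maintaining neural stem cells in the fly brain. The cluster of mir-283, mir-304 and mir-12 in Gmap, a Golgi protein gene on chromosome X, had its highest value at mir-283, with 2.92 in ISC/EBs and 0.17 in ECs. mir-304 had 2.19 in ISC/EBs and 0.37 in ECs. mir-12 had 1.46 in ISC/EBs and 0.21 in ECs. All 3 hairpins of this cluster were called in ISC/EBs and not in ECs. In tacc, a gene of spindle microtubules, mir-9384 had 2.88 in ISC/EBs and 0.13 in ECs. mir-4951, in the stress-responsive noncoding RNA gene lncRNA:Hsromega, had 2.35 in ISC/EBs and -0.11 in ECs. mir-9378, in CG17124, had 2.84 in ISC/EBs and 0.40 in ECs. In ECs these 8 members had between -0.37 and 0.40, where 0 means a level equal to Dam alone on the deposited scale.

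The pair of mir-275 and mir-305 had a smaller excess in ISC/EBs. mir-305 is known in the fly midgut for regulating the Notch and insulin pathways in ISCs. Both hairpins lie in the same fragment of 1576 bp on chromosome 2L, so they carry 1 value, 2.07 in ISC/EBs and 0.59 in ECs. The difference of 1.47 was called on the deposited scale and was 0.87 after quantile normalization.

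A second set of members had Pol II in both populations and more in ISC/EBs. mir-10, which lies in the Antennapedia complex of Hox genes, had 3.84 in ISC/EBs and 1.71 in ECs. mir-184, known for its part in female germline development, had 3.18 in ISC/EBs and 1.34 in ECs. mir-967, in the growth regulator gene bun, had 3.96 in ISC/EBs and 2.04 in ECs. These 3 were called in both populations and differed by at least 1 also after quantile normalization (1.58, 1.18 and 1.40). mir-281-1, in Oda, the ornithine decarboxylase antizyme gene, had 3.67 in ISC/EBs and 2.21 in ECs. Its neighbor mir-281-2 had 3.02 in ISC/EBs and 1.69 in ECs. Both hairpins were called in both populations. mir-996, the neighbor of mir-279, had 2.92 in ISC/EBs and 1.80 in ECs. mir-317, known from the cluster it shares with mir-277 and mir-34, had 2.10 in ISC/EBs and 1.06 in ECs. After quantile normalization the differences of these 4 were 0.86, 0.64, 0.42 and 0.39.

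The highest occupancy of a member in either population was at mir-279. This gene and its neighbor mir-996 share a seed and restrict the formation of certain sensory neurons in flies, and mir-279 is known to act on JAK/STAT signaling. mir-279, on chromosome 3R from 29215585 to 29215684, had 3.97 in ISC/EBs and 3.92 in ECs. The EC value was the highest of all 17802 genes, and the ISC/EB value was the third highest. Both rest on 2 fragments, while most genes are averaged over more. The other short genes reached at most 3.95 in ISC/EBs and 3.36 in ECs. The difference of 0.05 turned to -0.24 after quantile normalization and to -1.37 SD units when each track was divided by its SD, so no direction is given. The SDs were 0.856 in ISC/EBs and 0.652 in ECs, so 1 SD unit is a looser bar than 1 on the log2 scale. Within 5 kb, 23 of 37 fragments reached 1 in ISC/EBs and 18 in ECs.

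Other members were called in both populations with a deposited difference below 1, and for some of them the order of the populations depended on the scale. mir-8, the fly member of the miR-200 family, which is known for growth control through insulin signaling, had 2.35 in ISC/EBs and 2.61 in ECs. Its difference of -0.26 became -0.93 after quantile normalization. When each track was divided by its SD it was -1.26 SD units, which is not the log2 threshold, since 1 SD unit is a looser bar. mir-282 had 3.42 in ISC/EBs and 2.84 in ECs, but the order of its 2 values turned round after quantile normalization (difference -0.04). mir-958 had 2.11 in ISC/EBs and 1.87 in ECs. This difference of 0.24 turned to -0.44 after quantile normalization. mir-276a, known from olfactory memory, had 1.70 in ISC/EBs and 1.71 in ECs, with a difference of -0.66 after quantile normalization, whereas its copy mir-276b on the same arm had -0.11 in ISC/EBs and -0.04 in ECs. None of these 5 differences reached 1 on the deposited scale. Of members with no known role, mir-2501 in Nulp1 had 2.60 in ISC/EBs and 2.36 in ECs, an order that turned round after quantile normalization (difference -0.45). mir-4975 in CG45092 had 2.73 in ISC/EBs, which was 0.73 above its EC level. mir-9377, in the mRNA decay gene Tis11, had 2.78 in ISC/EBs and 1.97 in ECs. These 3 too were called in both populations.

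bantam is known to promote growth and to repress the pro-apoptotic gene hid. At the hairpin, mir-ban had 0.76 in ISC/EBs and 0.46 in ECs, both below 1. The rest of its host transcript, lncRNA:CR43334, had 2.29 in ISC/EBs and 1.31 in ECs. The hairpin lies in 2 fragments of 234 bp in all, a dip between higher fragments, and the mean over the hairpin widened by 1 kb on each side was 2.46 in ISC/EBs and 1.33 in ECs. For bantam, the value at the hairpin and that of its transcript therefore fall on opposite sides of the call in both populations.

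**Figure D2:**
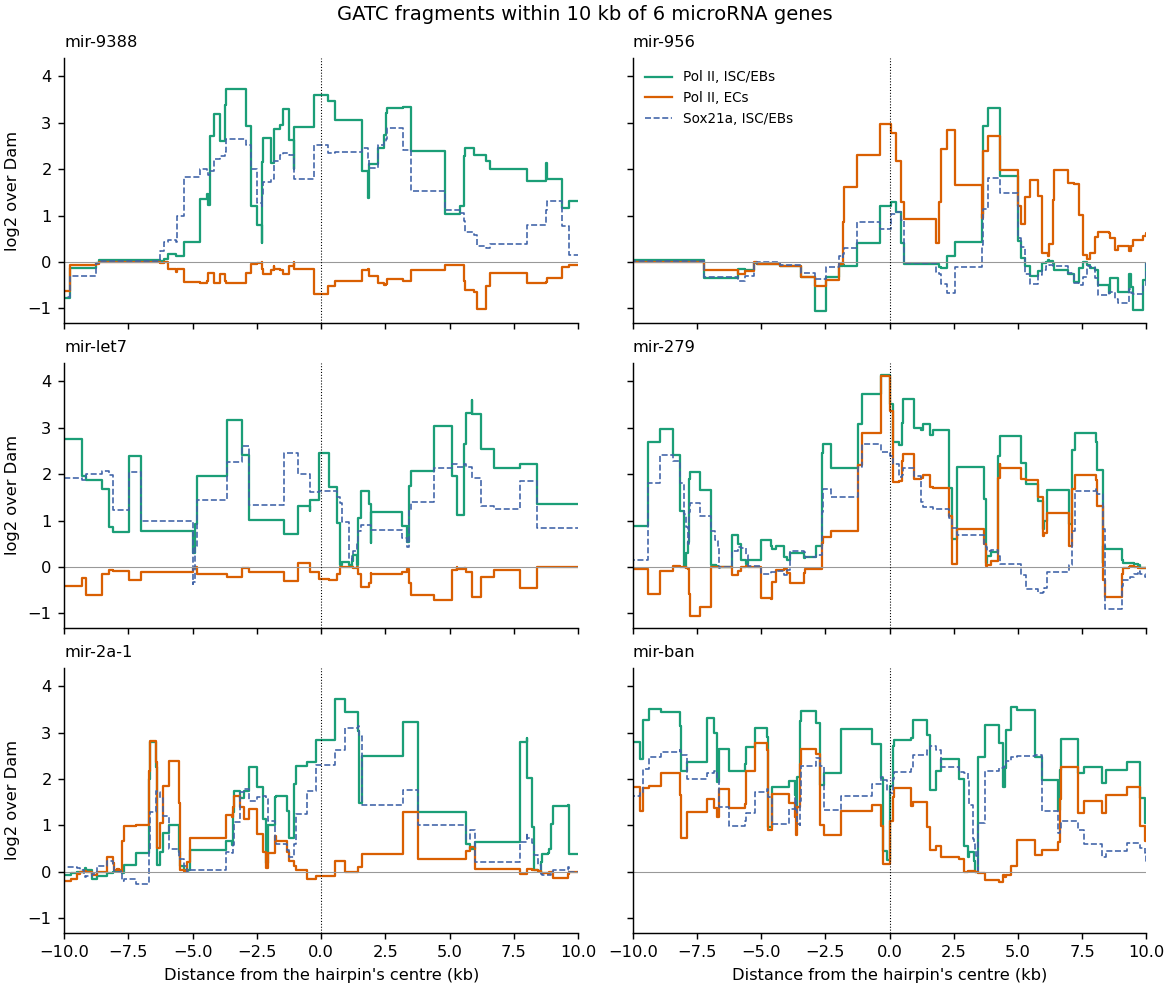
Levels on the GATC fragments within 10 kb of 6 hairpins, with the distance from the hairpin's centre in kb on the x axis and the log2 ratio over Dam on the y axis, for Pol II in ISC/EBs, Pol II in ECs and Sox21a in ISC/EBs. mir-9388, mir-let7 and mir-2a-1 carried Pol II in ISC/EBs and lay near or below 0 in ECs at the hairpin, mir-956 was higher in ECs, mir-279 was high in both, and mir-ban sat in a narrow dip.

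Only 7 members were higher in ECs by at least 1. The largest of these differences was at mir-4909, on chromosome 2R from 7711417 to 7711476, with 0.10 in ISC/EBs and 2.75 in ECs (difference -2.66). It lies in CG1941, whose other fragments had 0.56 in ISC/EBs and 2.73 in ECs, so hairpin and host were at like levels in ECs. mir-314 and mir-956, less than 1 kb apart on chromosome 3L and in no other gene, formed an EC locus. mir-314 had 0.41 in ISC/EBs and 2.31 in ECs. mir-956 had 1.22 in ISC/EBs and 2.96 in ECs. They lie next to Tim13, a mitochondrial import gene with 0.53 in ISC/EBs and 1.53 in ECs, which is 181 bp from mir-956.

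The other 4 lie in protein-coding genes. mir-4985, in the fatty acid transporter gene Fatp3, had 0.25 in ISC/EBs and 1.48 in ECs, while the rest of Fatp3 had -0.05 in ISC/EBs and 1.20 in ECs. mir-1007, in the ABC transporter gene Abca3, had -0.28 in ISC/EBs and 0.92 in ECs. mir-986, in the cytochrome P450 gene Cyp4e2, had 1.56 in ISC/EBs and 2.56 in ECs, while the rest of that gene had 0.14 in ISC/EBs and 0.95 in ECs. mir-1012 stood apart from its host, the lysosomal sorting gene Lerp. It had 0.56 in ISC/EBs and 2.08 in ECs, while the rest of Lerp had -0.01 in ISC/EBs and 0.18 in ECs. Next in this order, among members with a level of at least 1 in one population, came 5 that were lower in ISC/EBs by less than 1, namely mir-318, mir-285, mir-1010, mir-4980 and mir-4977. mir-318 was the highest of them, with 1.17 in ISC/EBs and 2.14 in ECs. The other 4 lay between 0.26 and 0.53 in ISC/EBs and between 1.04 and 1.35 in ECs. mir-bft, known for protecting sensory bristles from cell death, was not called, with -0.03 in ISC/EBs and 0.58 in ECs.

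Some microRNAs known from other tissues lay near 0 in both populations. mir-1, the muscle microRNA, had -0.01 in ISC/EBs and 0.05 in ECs. mir-124, the neuronal one, had -0.02 in ISC/EBs and -0.01 in ECs. mir-iab-4, a Hox-cluster microRNA that represses Ubx, had 0.00 in ISC/EBs and -0.01 in ECs. mir-9a, known from sensory organ precursors, had -0.10 in ISC/EBs and -0.04 in ECs. The levels of these 4 members differed from 0 by at most 0.10. On the deposited scale, whose normalization is not named, 0 means a level equal to Dam alone. Of all fragments, 14.1% were exactly 0 in ISC/EBs and 18.1% in ECs. Coverage is unknown, so a value near 0 is not a measured absence of Pol II. Other members known from other tissues were called. In ISC/EBs and ECs these were mir-184 (3.18 and 1.34), mir-276a (1.70 and 1.71) and mir-279 (3.97 and 3.92). In ISC/EBs alone, mir-92a was called (2.68).

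Members with metabolic or growth roles were also among the low ones. mir-278, known from insulin responses of the fat body, had 0.02 in ISC/EBs and 0.00 in ECs. mir-14, known from fat metabolism and cell survival, had 0.09 in ISC/EBs and 0.05 in ECs. The fragment of mir-34 and mir-277, which are known from ageing and from amino acid catabolism, had 0.08 in ISC/EBs and 0.02 in ECs. It is 3127 bp long, and the other fragments of their shared noncoding host, lncRNA:CR43459, had 1.78 in ISC/EBs and 1.53 in ECs. The other fragments of this host were thus past the call, and that of the hairpins was not. mir-7, known for acting on Notch targets and lying in HnRNP-K, had -0.07 in ISC/EBs and -0.37 in ECs. mir-33, in the lipid regulator gene SREBP, was below the call in both populations, with 0.86 in ISC/EBs and -0.57 in ECs, but the difference of 1.43 was called (1.18 with quantile normalization). The pair of mir-11 and mir-998, in the cell cycle gene E2f1, had 0.44 in ISC/EBs and -0.01 in ECs. mir-31a, known from embryonic segmentation, had 0.31 in ISC/EBs and 0.24 in ECs. mir-989, known from border cell migration in the ovary, had 0.07 in ISC/EBs and -0.27 in ECs. The levels of these members were below 1 in both populations.

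Large clusters had levels below 1 throughout. The 12 members from mir-972 to mir-979 on chromosome X lay between -0.54 and 0.53 in ISC/EBs and between -0.60 and -0.01 in ECs. The 8 members of the mir-309 cluster, which clears maternal RNA in the early embryo, lay between -1.08 and 0.06 in ISC/EBs and between -0.17 and 0.00 in ECs. The 7 members from mir-310 to mir-992 had -0.43 to 0.12 in ISC/EBs and -0.33 to -0.04 in ECs. The 6 from mir-959 to mir-964, in DIP-theta, had -0.23 to 0.00 in ISC/EBs and -0.32 to 0.00 in ECs. These 33 genes hold none of the 62 and 38 members called in ISC/EBs and ECs. One of them, mir-979, with 0.53 in ISC/EBs and -0.59 in ECs, is among the 46 members higher in ISC/EBs by at least 1 (difference 1.12, and 0.92 after quantile normalization). In grp, the checkpoint kinase gene, mir-306, mir-79 and mir-9b share fragments with -0.41 in ISC/EBs and -1.06 in ECs. The EC value is one of the lowest of the set. Their neighbor mir-9c had 0.63 in ISC/EBs and -0.63 in ECs. This difference of 1.26 was called (1.04 after quantile normalization).

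**Figure D3:**
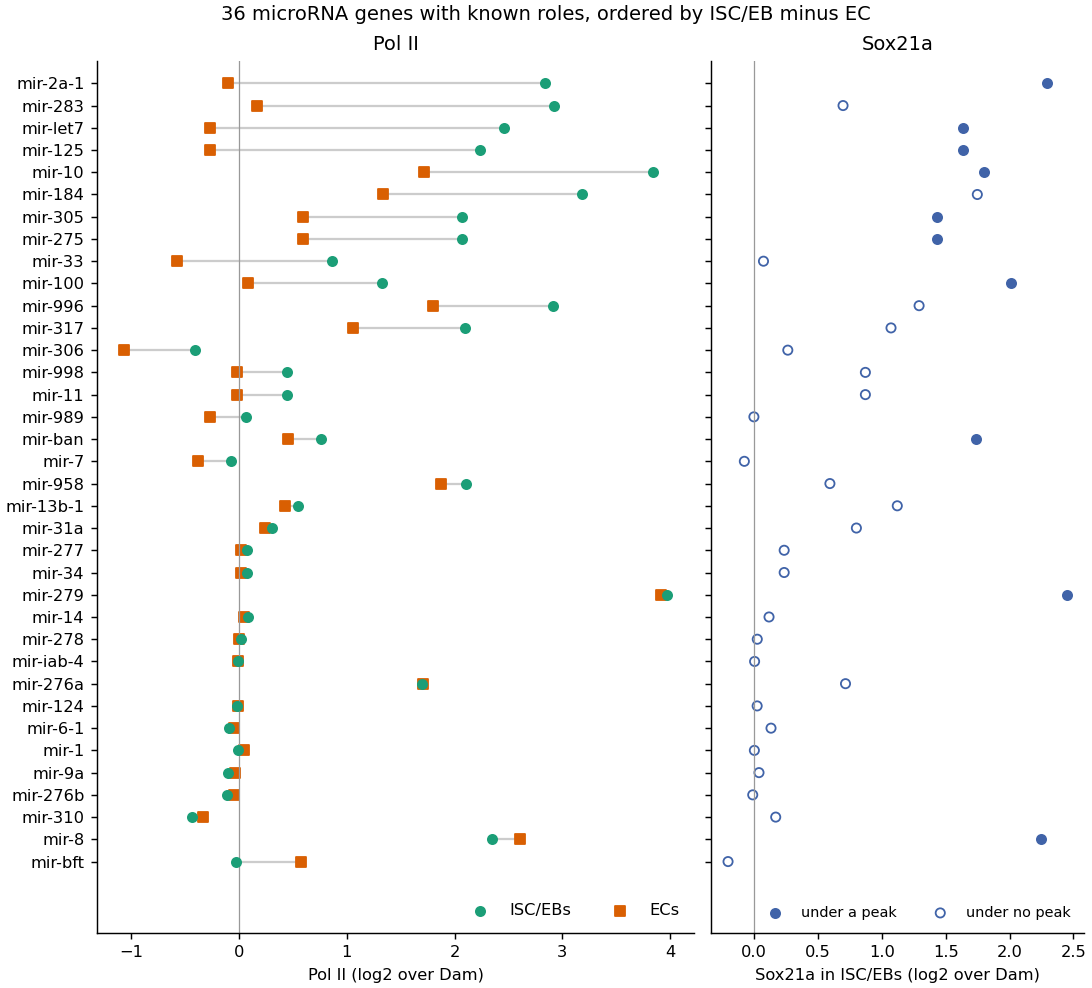
The 36 microRNA genes with known roles, from the largest ISC/EB excess at the top to the largest EC excess at the bottom. The left panel gives Pol II in ISC/EBs (circles) and ECs (squares) and the right panel Sox21a in ISC/EBs (filled where the gene lies under a peak), all as log2 over Dam. The upper part holds genes with Pol II in ISC/EBs, the middle mostly genes near 0, and mir-279, mir-958, mir-276a and mir-8 carry like levels in both populations.

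Most members overlap another gene of the table, which gives no strand or exons, so whether a hairpin is intronic or antisense is not resolved here. Of 260 members, 168 overlap a protein-coding gene, 44 only a noncoding RNA gene and 48 no other gene. Those in noncoding genes were called most often in ISC/EBs (14 of 44, 31.8%), beside 40 of 168 (23.8%) in protein-coding genes and 8 of 48 (16.7%) in no other gene. Over all genes the share was 29.4%, and over the other short genes 24.3%, so the first 2 classes lay near the background. In ECs the counts were 9 of 44, 24 of 168 and 5 of 48, beside 18.9% of all genes and 14.1% of the other short genes. The order of the 3 classes was the same in both populations, and it was not tested.

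Host and hairpin mostly had the same call, most often because neither was called. For 210 members the host has fragments of its own beside those of the hairpin. In ISC/EBs, 38 of them had both the member and the rest of the host at 1 or above, 16 the member alone, 17 the host alone and 139 neither. In ECs these counts were 16, 17, 12 and 165. Pearson's r between member and rest of host was 0.71 in ISC/EBs and 0.57 in ECs, over 210 members of 172 hosts, as a description, since the points share tracks and neighboring fragments.

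A hairpin stood above the rest of its host about as often as the fragments of the hosts did. Those fragments include the ones under the hairpins, and hosts with many fragments weigh more in their share. In ISC/EBs, 21 of 210 members (10%) exceeded the rest of the host by at least 1, against 9.81% of the 9387 fragments of these hosts, and 14 (6.67%) fell short of it by as much, against 6.13%. In ECs 16 (7.62%) exceeded it, against 6.43%, and 8 (3.81%) fell short of it, against 2.11%. Split by host, the shares in ISC/EBs were 8 of 42 (19.0%) for noncoding hosts, against 11.1% of their fragments, and 13 of 168 (7.74%) for protein-coding hosts, against 9.71%. Hairpins in noncoding hosts were thus the ones above the share of host fragments, on few members and with no test.

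Single hairpins departed far from their hosts. mir-4955, in trol, the perlecan gene, had 3.33 in ISC/EBs and 2.28 in ECs, while the rest of trol had 0.59 in ISC/EBs and 0.01 in ECs. mir-966, in the purine synthesis gene Pfas, had 2.78 in ISC/EBs and 2.07 in ECs, while its host had 0.32 in ISC/EBs and 0.02 in ECs. mir-282 exceeded lncRNA:CR43626 by 2.44 in ISC/EBs and 2.73 in ECs. The excess of these 3 was above 2 in both populations. At mir-967 the excess over bun was 2.36 in ISC/EBs and 1.29 in ECs. At mir-184 the excess over lncRNA:CR44206 was 2.28 in ISC/EBs and 1.14 in ECs, while that of mir-279 over lncRNA:CR31044 was 1.35 in ISC/EBs and 2.32 in ECs. mir-9384 exceeded tacc by 2.23 in ISC/EBs and by 0.09 in ECs.

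Others lay below their hosts. mir-4949, in ATPsynC, a subunit gene of the mitochondrial ATP synthase, had 0.58 in ISC/EBs and 0.32 in ECs, while the rest of the host had 3.31 in ISC/EBs and 2.85 in ECs. mir-375 had 0.00 in ISC/EBs and 0.11 in ECs, while lncRNA:CR45345 had 0.66 in ISC/EBs and 2.49 in ECs. mir-308, in the ribosomal protein gene RpS23, had 0.24 in ISC/EBs and 0.43 in ECs, while its host had 2.20 in ISC/EBs and 0.98 in ECs. Each of these 3 hosts reached 1 in at least one population, while the hairpins did so in neither.

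**Figure D4:**
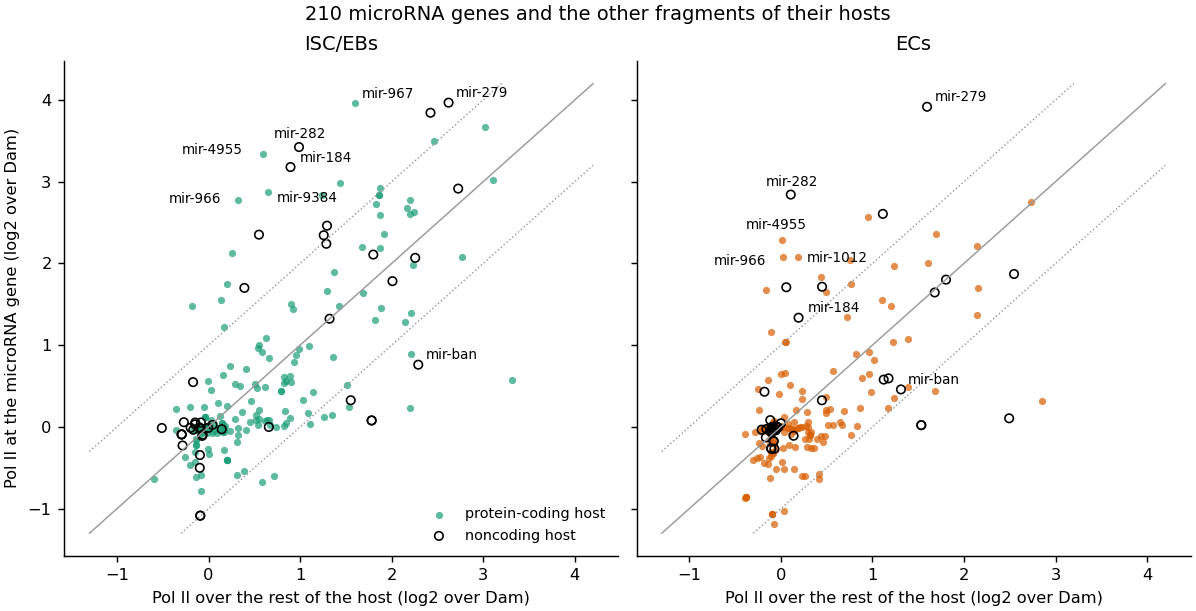
Pol II at 210 microRNA genes (y axis) against the mean over the other fragments of their hosts (x axis), both as log2 over Dam, in ISC/EBs on the left and ECs on the right. Filled points have protein-coding hosts and open circles noncoding hosts, the solid line marks equal levels and the dotted lines a difference of 1. mir-4955, mir-282, mir-966 and mir-184 lie above the upper dotted line in both panels.

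Sox21a signal was measured in ISC/EBs. At 46 members (17.7%, at 37 loci) it reached 1, against 14.1% of all genes and 16.3% of the other short genes. Under the authors' Sox21a peaks, called at a false discovery rate (FDR) below 0.01, lay 30 members (11.5%, at 24 loci), against 17.4% of all genes and 6.25% of the other short genes. The 2769 peaks have a median length of 2419 bp, far longer than a hairpin, so a peak marks the neighborhood of a microRNA gene and not a binding site.

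The highest Sox21a level of all 17802 genes was at mir-9378 in CG17124, with 3.42. Its peak, on chromosome 2L from 10750321 to 10754960, has a score of 2.78 (the authors' value, on the log2 scale). mir-282 had 2.79, mir-967 2.72, mir-2491 in fog 2.56 and mir-9388 2.53. mir-279, mir-11182, mir-2a-1, mir-281-1 and mir-8 followed, between 2.24 and 2.45. All 10 loci lay under a peak. The peaks with the highest scores over members were those at mir-281-1 and mir-281-2 (3.01) and at the hairpins in spi (2.90), followed by those at mir-9378, mir-9388 (2.77), mir-4975 (2.72), mir-282 (2.70) and mir-9377 (2.61).

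Most members under a peak had Pol II in the same cells, as did most other short genes under a peak. Of the 30, 28 reached 1 for Pol II in ISC/EBs and 13 did in ECs, while of the 230 under no peak 34 (14.8%) did in ISC/EBs and 25 (10.9%) in ECs. Under no peak, 20.6% of all genes did in ISC/EBs and 13.9% in ECs. Among all genes under a peak, 71% reached 1 in ISC/EBs and 42.7% in ECs, and among the other short genes under a peak 91.9% in ISC/EBs and 52.9% in ECs. In ISC/EBs the share of members (93.3%) was thus near that of other short genes under a peak. The median under a peak was 2.76 in ISC/EBs and 0.59 in ECs, while under no peak it was 0.03 in ISC/EBs and -0.02 in ECs. Of the 30, 21 were higher in ISC/EBs by at least 1 and 0 were higher in ECs, against 25 and 7 of the 230. The same calls were made at 26.3% and 1.45% of all genes under a peak, and at 62.2% and 0.581% of the other short genes under one. Among all genes under no peak these shares were 6.43% and 2.92%. The 2 exceptions below the Pol II call were mir-ban, with Sox21a at 1.74, and mir-2492 in Drak, with Pol II at 0.08 in ISC/EBs and 0.18 in ECs and Sox21a at 1.50.

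Sox21a and Pol II levels went together over members as over all genes. Pearson's r between Sox21a and Pol II in ISC/EBs was 0.82 over the 260 members and 0.82 over all genes. Between Sox21a and Pol II in ECs it was 0.46 over members and 0.59 over all genes. The Sox21a track and the ISC/EB Pol II track both come from DamID in esg-driven cells and share fragments and fragment lengths. Whether this shared source contributes to the relation was not tested. Some members were past the call for one signal and below it for the other. mir-283 had 2.92 for Pol II in ISC/EBs, 0.70 for Sox21a and no peak. Over its cluster with mir-304 and mir-12, Sox21a ran from 0.70 to 1.78, so the locus as a whole did carry Sox21a signal. mir-13a had 0.05 for Pol II in ISC/EBs and 1.30 for Sox21a.

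**Figure D5:**
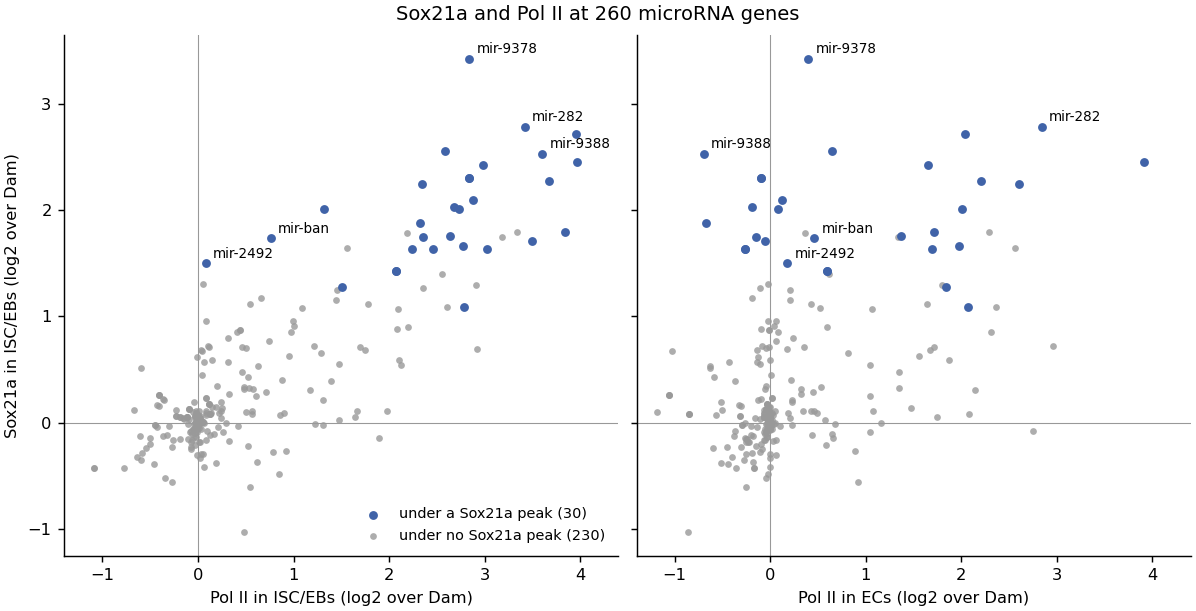
Sox21a at 260 microRNA genes (y axis) against Pol II in ISC/EBs (left) and ECs (right), all as log2 over Dam, with the 30 genes under a Sox21a peak in blue and the 230 others in grey. The blue points sit at the right of the ISC/EB panel, apart from mir-ban and mir-2492, and spread over the whole width of the EC panel.

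Genes that make microRNAs, act with them or belong to related small RNA pathways (such as Dcr-2, AGO2 and armi) were compared through a list of 25, all found in the table. Of these, 9 of 25 reached 1 in ISC/EBs and 2 in ECs, beside 29.4% and 18.9% of all genes. By at least 1, 3 were higher in ISC/EBs and 0 in ECs, beside 9.89% and 2.66% of all genes. Under a Sox21a peak lay 7, beside 17.4% of all genes. Their median was 0.80 in ISC/EBs and 0.23 in ECs, while all genes had 0.30 in ISC/EBs and 0.01 in ECs. The level was higher in ISC/EBs at 24 of 25 genes as deposited, and at 17 after quantile normalization. Over all genes, 65.3% were higher in ISC/EBs as deposited, a share that is no background for the 17. After quantile normalization the median difference was 0.19 over the 25 genes and -0.01 over all genes.

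In the microRNA pathway the genes of the cutting enzymes were low, while loqs and AGO1 were higher in both populations. drosha, whose product cuts the primary transcript, had 0.13 in ISC/EBs and 0.01 in ECs. Its partner gene pasha had 0.23 in ISC/EBs and 0.23 in ECs. Dcr-1, which encodes the Dicer of the microRNA pathway, had 0.11 in ISC/EBs and -0.02 in ECs. None of these 3 was called. loqs, the gene of its double-stranded RNA binding partner, had 1.68 in ISC/EBs and 1.12 in ECs. AGO1, the Argonaute gene of microRNAs, had 1.44 in ISC/EBs and 0.95 in ECs. After quantile normalization the differences of these 5 genes lay between -0.18 and -0.03. The 3 genes called as higher in ISC/EBs act on microRNAs or stem cell fate. lin-28, whose product binds the let-7 precursor in other animals, lies under a Sox21a peak and had 2.50 in ISC/EBs and 0.10 in ECs. Tailor, which encodes a uridylyl transferase acting on precursor hairpins, had 1.76 in ISC/EBs and 0.66 in ECs. brat, a translational repressor gene of stem cell lineages, also lies under a Sox21a peak and had 1.35 in ISC/EBs and -0.09 in ECs. After quantile normalization the differences of lin-28, Tailor and brat were 1.98, 0.53 and 1.19, so Tailor lost the call. lin-28 and mir-let7 were thus both occupied in ISC/EBs and near 0 in ECs.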

How the data were processed

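Targeted DamID libraries were made by the authors from DNA of dissected midguts, cut with DpnI at methylated GATC sites, ligated to adaptors, digested with DpnII and amplified. The authors deposited, for each experiment, 1 track of log2 ratios (fusion over Dam) per GATC fragment, averaged over samples, and Sox21a peaks called at an FDR of 0.01 whose scores are log2 values too. The sources used here do not name the aligner, normalization, genome build or peak caller. Gene positions came from the RefSeq Release 6 table. On all 6 chromosomes with members the fragments reach past the last gene, and most ISC/EB and EC markers fall on their signal.

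Gene values were length-weighted means over fragments, computed with Python 3.11.15, numpy 2.4.6, pandas 2.3.3 and matplotlib 3.10.9, and tested on simulated data (500 of 500 means equal to a direct computation). A host is an overlapping gene other than a member, protein-coding first, then by overlap. The background was every gene with a fragment, and the other genes in at most 2 fragments. No test was run, because 1 averaged track per experiment holds no replicate values. Members, gene lists and alternatives were chosen with earlier results of these data known.

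Genes named were 36 members with known roles, the 10 loci highest in each track, the 10 with the largest difference in each direction, the 10 members under the highest peaks and the 10 that differ most from their hosts. Neighbors of these in a cluster, the members of a name family and mir-12, mir-304, mir-13a, mir-1007 and mir-2492 were picked after seeing their values. Alternatives changed the window, the weights, the fragment length, the scaling, the threshold, the counting by locus, the host definition and the peak overlap.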

Additional observations from a re-analysis of the deposited data

How the results depend on the processing

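Counts of members depended on the threshold and on the scale of the tracks. With a threshold of 2 on the log2 scale, 39 members were called in ISC/EBs instead of 62, 15 in ECs instead of 38 and 15 for Sox21a instead of 46, and 15 were higher in ISC/EBs and 1 in ECs. With a threshold of 0.5, 78 were called for Sox21a, and 75 were higher in ISC/EBs and 17 in ECs. Quantile normalization of the Pol II tracks gave 27 higher in ISC/EBs and 13 in ECs, instead of 46 and 7, beside 3.61% and 4.84% of all genes. Division of each track by its SD gave 19 higher in ECs by at least 1 SD unit, a looser bar than 1 on the log2 scale, beside 5.7% of all genes. For the other thresholds, windows and peak settings no share over all genes is given, so those counts describe the members alone. With the hairpin widened by 5 kb on each side, 29 were higher in ISC/EBs and 2 in ECs, and with 1 kb 36 of the 46 and 5 of the 7 kept their call. A Sox21a peak lay within 5 kb of 77 members, and 19 lay under peaks with a score at or above the median of all peaks, instead of 30. The 10 members just inside the threshold of 1 had 1.004 to 1.39 in ISC/EBs, 1.04 to 1.36 in ECs and 1.07 to 1.26 for Sox21a, and the 10 just outside 0.76 to 0.996, 0.59 to 0.92 and 0.80 to 0.96. The other settings moved no count by more than 1.5 times.

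No paired analysis was possible because the deposited tracks are averages over samples, and no sample was left out for the same reason. Depth is unknown, and a member in a single long fragment is averaged over DNA far from its hairpin.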

Other observations

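Calls were also counted by chromosome. Higher in ISC/EBs by at least 1 were 16 of 56 members on chromosome 2L (28.6%, in 10 loci), beside 9.52% of all genes on that arm. On 2R it was 5 of 55 (9.09%), beside 12.2% of all genes there. The others lay in between, with 5 of 31 on 3L (16.1%, beside 9.65%), 11 of 58 on 3R (19%, beside 9.63%) and 8 of 58 on X (13.8%, beside 8.61%), while chromosome 4 holds 2 members, of which 1 was called. In ECs, Pol II reached 1 at 5 of 56 members on 2L, beside 17.4% of all genes there, and at 12 of 55 on 2R, beside 21.5%. Members of 1 locus share these counts, and no test was run.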
